A study of Mus musculus with 2 samples.

Results

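In the library without coculture, 180 cell barcodes carried a macrophage profile together with S100a8 and S100a9, and they are called S100-bearing barcodes here. UMIs (unique molecular identifiers) count captured RNA molecules, and barcodes under 500 genes or above 10% mitochondrial UMIs were left out first. Members were chosen by measured levels of 4 genes. A member had at least 10 UMIs of Ctss making up at least 0.15% of its UMIs, Lyz2 at 1% or more, and S100a8 plus S100a9 at 0.2% or more. The 180 members were 9.91% (exact Clopper-Pearson 95% interval 8.57 to 11.4) of the 1817 barcodes kept in that library, and the series held 4822 kept barcodes in all. Of the 508 barcodes that met the Ctss and Lyz2 conditions, 35.4% (31.3 to 39.8) also met the S100 condition. The coculture library had 0 members among 3005 kept barcodes, which allows a share of up to 0.0998% by a limit of 3 cells (exact upper bound 0.123%), and 0 of its barcodes met the Ctss and Lyz2 conditions, so the comparisons below are within 1 library.

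The study profiled mouse bone marrow cells cultured with granulocyte-macrophage colony-stimulating factor (GM-CSF), to describe by single-cell sequencing the suppressor-type myeloid cells that arise beside human mesenchymal stromal cells (MSC). Femur marrow of C57BL/6NCrljOri (H-2b) mice, freed of red cells, received GM-CSF at 40 ng/mL for 5 days in both groups, and the library without coculture was sorted as CD11bhiLy6Chi cells. The other group had human MSC in inserts with 0.4 µm pores, at 1 MSC to 5 marrow cells and seeded 24 h ahead, and was sorted as CD11bmidLy6Cmid cells. The labels name RPMI1640 as the marrow culture medium and DMEM for the coculture, and do not say how many mice were used or whether they were pooled. Gate, coculture, medium and library therefore cannot be told apart, and the human cells make the coculture a cross-species model. With 1 library per group no test could be run. The intervals given cover counting error only, and they are too narrow for genes whose UMIs sit in few barcodes.

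Macrophages are phagocytes that engulf and digest particles in lysosomes, and GM-CSF drives marrow precursors towards macrophages, dendritic cells and granulocytes. S100a8 and S100a9 encode the subunits of calprotectin, a calcium- and zinc-binding protein that is among the most abundant proteins of neutrophils and is also made by classical monocytes. As monocytes become macrophages, both genes are usually turned down. Neutrophils in turn pass through an ordered programme, making primary granule proteins first, then secondary granule proteins, and last the receptors and surface proteins of mature cells.

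S100a8 (ENSMUSG00000056054) lies at chr3:90668978-90670035 on the plus strand and S100a9 (ENSMUSG00000056071) at chr3:90692632-90695721 on the minus strand (GRCm38, GENCODE M21), both in the S100 gene cluster. The bases before their starts are shown because both genes define the class and were high in the same barcodes. They are from RefSeq (GRCm38.p6), each 5′ to 3′ on the gene's own strand, without bases that GENCODE places inside the gene. They cover chr3:90668821-90668977 for S100a8 and chr3:90695722-90695971 for S100a9. Capitals mark matches to GAGGAAG, a PU.1-type motif, or TTGCNNAA, a C/EBP-type motif, searched on both strands of the 250 bases before the RefSeq start.
S100a8: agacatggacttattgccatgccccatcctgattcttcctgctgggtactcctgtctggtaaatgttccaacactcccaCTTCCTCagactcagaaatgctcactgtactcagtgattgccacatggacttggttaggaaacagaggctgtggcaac
S100a9: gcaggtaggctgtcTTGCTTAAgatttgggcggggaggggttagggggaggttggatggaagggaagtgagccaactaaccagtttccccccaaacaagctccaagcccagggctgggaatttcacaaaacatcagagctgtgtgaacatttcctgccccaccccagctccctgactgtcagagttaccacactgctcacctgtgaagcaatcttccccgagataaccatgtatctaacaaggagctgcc
The S100a8 window held 1 GAGGAAG match, on the minus strand, and the S100a9 window 1 TTGCNNAA match. Among all 32851 RefSeq windows of 250 bases, 10.6% held GAGGAAG and 9.56% held TTGCNNAA, so such matches are common, and they do not mark a bound site.

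The values that chose the members are given as a description. S100a8 plus S100a9 made up from 0.205% to 11.5% of a member's UMIs, with a median of 1.69%. Members were set beside 328 S100-low macrophages, which met the same Ctss and Lyz2 conditions with S100a8 plus S100a9 under 0.2% (median 0.0163%). The other comparator was 682 S100-high neutrophils, barcodes with S100a8 plus S100a9 at 2% or more that failed the Ctss condition (median 17.0%). The remaining 627 kept barcodes fell in none of these classes. Lyz2, a lysozyme of myeloid cells, took a median of 2.55% of UMIs in members (1.44% to 8.15%), 3.74% in S100-low macrophages and 1.02% in neutrophils. Ctss, the lysosomal protease cathepsin S, took a median of 0.258% in members (0.151% to 0.658%), 0.382% in S100-low macrophages and 0% in neutrophils. By these medians members sat between the comparators on the rule's own genes. The class conditions themselves put members above S100-low macrophages in S100a8 plus S100a9, and required neutrophils to fail the Ctss condition. That position is therefore no result.

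**Figure D1:**
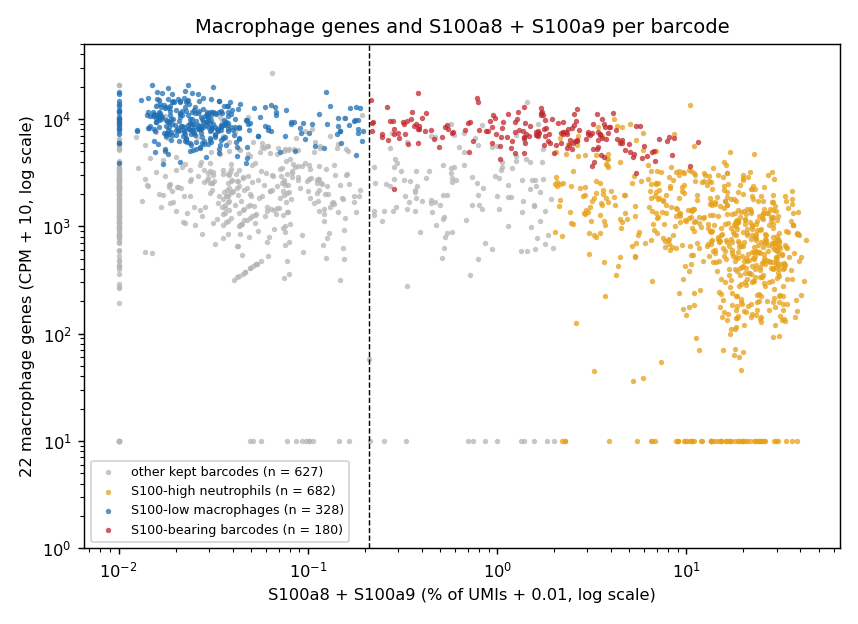
Each point is a kept barcode of the library without coculture; the x axis is S100a8 plus S100a9 as a percent of UMIs (0.01 added, log scale, with the dashed line at the 0.2% condition) and the y axis the summed CPM of 22 macrophage genes (10 added, log scale). The 180 S100-bearing barcodes lie at the height of the 328 S100-low macrophages and spread to the right without a gap at the line.

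Few barcodes lay near the S100 condition. Just inside it, 15 barcodes had 0.2% to 0.3% S100a8 plus S100a9, with a median of 29953 UMIs per barcode, and just outside it 12 barcodes had 0.15% to 0.2%, with a median of 18338. Another 12 barcodes at 0.1% to 0.15% had a median of 44160 UMIs, so depth did not step in 1 direction across the condition.

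Levels below are UMIs summed over a class and divided by all UMIs of the class and given as CPM, the usual counts-per-1000000 scale. S100a8 stood at 9875 CPM in members, 214 in S100-low macrophages and 70689 in neutrophils. S100a9 stood at 11185, 119.9 and 96697 CPM. Over single members, S100a8 had its lowest value at 543 CPM, its median at 8264 and its highest at 50187, and S100a9 ran from 36.0 through 8171 to 64709. The 10 members richest in each gene held 19.7% of the S100a8 UMIs and 22.5% of the S100a9 UMIs, a spread that the rule also sets, since every member had to hold the pair. In S100-low macrophages the highest barcode reached 1515 CPM for S100a8 and 1411 for S100a9, so the ranges of single barcodes overlapped at their ends. The median S100-low macrophage held 4 UMIs of the pair and the median member 592.5, a gap that the rule itself sets. The level that free RNA in the droplets gives was not measured. S100a8 had a UMI in 79.3% of S100-low macrophages, and in 36.7% of them at a common depth of 3000 UMIs, at which all 180 members had one.

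Depth set the members apart as well. A member had a median of 37446 UMIs (quartiles 22591 and 58752, range 4292 to 103996) and 6089 genes. An S100-low macrophage had a median of 21417 UMIs (quartiles 15667.8 and 32513.5) and 4679.5 genes, and an S100-high neutrophil 5647 UMIs (quartiles 3379.8 and 9237.5) and 1733.5 genes. The member median was 1.75 times that of S100-low macrophages and 6.63 times that of neutrophils. It also exceeded 27064, the sum of the medians of those classes, which 123 of 180 members and 116 of 328 S100-low macrophages passed. Of the 91 barcodes that made up the deepest 5% of the kept library, 53 were members. The share of mitochondrial UMIs was alike, with medians of 2.87% in members, 2.93% in S100-low macrophages and 2.16% in neutrophils. When each barcode was thinned to 3000 UMIs, members and S100-low macrophages showed 1423.5 and 1414 genes and neutrophils 1116; shallower barcodes, 1 S100-low macrophage and 142 neutrophils, were left out of these and all other thinned values.

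A droplet that held a macrophage and a neutrophil could meet the member rule, and whether a given member was 1 cell or more was not tested. A doublet caller, Scrublet, called 0 of the 1817 kept barcodes and so removed none. The main gene groups are given with both comparators for that reason. The part of such droplets in any of these levels was not tested.

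**Figure D2:**
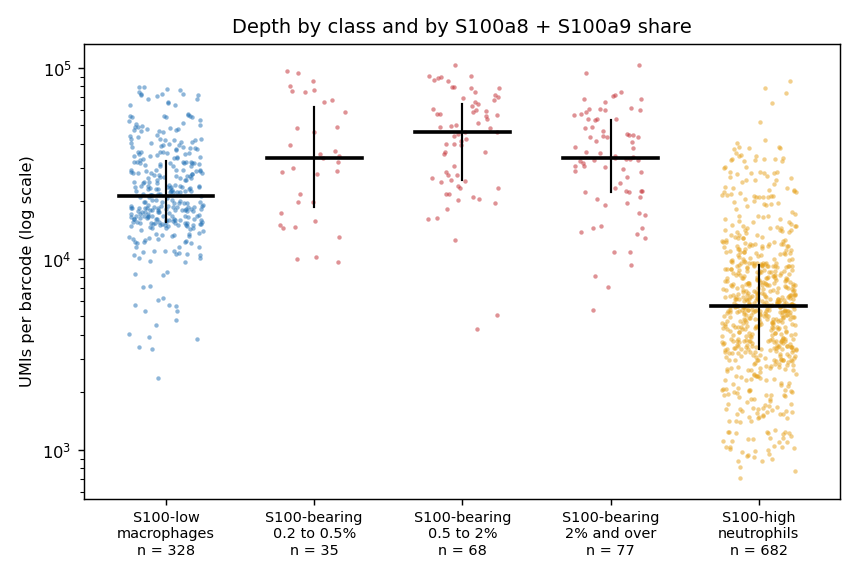
UMIs per barcode (log scale) for S100-low macrophages, S100-bearing barcodes in 3 bands of S100a8 plus S100a9 share, and S100-high neutrophils; points are barcodes, thick bars medians and thin lines quartiles. Medians were 33705, 46037 and 33730 UMIs in the 3 bands, above the 21417 of S100-low macrophages and the 5647 of neutrophils.

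Macrophage identity genes were somewhat lower in members than in S100-low macrophages and mostly above neutrophils. Of the 22 genes of a macrophage list all were measured (10 CPM or more in either class), and 0 differed by 2-fold from S100-low macrophages. Over all 8063 genes measured in that comparison, 88 were at least 2-fold higher in members (1.09%) and 3 at least 2-fold lower (0.0372%), with a median log2 ratio of -0.02. A count of 0 is near that background, so it is no result about the list. The macrophage list had a median log2 ratio of -0.29, in a class chosen by Ctss and by Lyz2, which neutrophils also held. Its summed level was 7650 CPM in members, 9307 in S100-low macrophages and 1425 in neutrophils. Per barcode it ran from 2217 to 17506 CPM in members, from 3795 to 20622 in S100-low macrophages and from 0 to 13438 in neutrophils. Against neutrophils, 19 of the 22 genes were at least 2-fold higher in members, with a median log2 ratio of 2.81. Among the 8054 genes measured in that comparison, members exceeded neutrophils by 2-fold or more in 1506 (18.7%) and fell short of them by 2-fold or more in 293 (3.64%), with a median of 0.41. Scaling by trimmed means (TMM) in place of totals moved the ratios against neutrophils by -0.36 and made that split 823 higher and 508 lower, and it moved those against S100-low macrophages by -0.00. The neutrophil class was mixed in Ctss, since 250 of its 682 barcodes had a UMI of it. Against the 432 neutrophils without one, a setting chosen after seeing the data, 2159 genes were higher in members and 395 lower.

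The markers given for the class were mostly shared with S100-low macrophages. Mrc1 (ENSMUSG00000026712, chr2:14229392-14332057), the mannose receptor, stood at 138 CPM (95% interval 129.9 to 147) in members, 177 (168 to 186) in S100-low macrophages and 12.6 (9.89 to 15.9) in neutrophils. Over single members it ran from 0 through a median of 132 to 639 CPM. Axl, a receptor tyrosine kinase that helps clear dying cells, stood at 251, 301 and 39.5 CPM. Naaa, a lysosomal amidase of lipid amides, stood at 739.5, 865 and 124 CPM and had a UMI in all 180 members, from 239 to 1849 CPM. Olfm1, which encodes a secreted olfactomedin-domain protein, stood at 231, 266 and 27.0 CPM. Each of these 4 genes was 0.78 to 0.868 times its level in S100-low macrophages, and only S100a8, a gene of the rule, was higher in members. At 3000 UMIs per barcode, Mrc1 had a UMI in 37.2% of members, 44.6% of S100-low macrophages and 0.74% of neutrophils, while unthinned the shares were 93.9%, 88.7% and 2.64%. Further macrophage genes had the same order. Csf1r, the receptor of macrophage colony-stimulating factor, stood at 330.4 CPM in members, 406 in S100-low macrophages and 64.8 in neutrophils. Gpnmb, a glycoprotein of phagocytes, stood at 935, 1202 and 87.6 CPM.

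Genes of digestion and antigen display were also near their S100-low macrophage levels. All 30 lysosome and proteolysis genes were measured and lay within 2-fold of S100-low macrophages, with a median log2 ratio of -0.26. Only 1.09% of all measured genes were 2-fold higher there and 0.0372% lower, so such counts of 0 say little about any list. Against neutrophils 25 of the 30 were at least 2-fold higher (median 1.40), beside 18.7% of all measured genes. The list includes Ctss, which the class conditions themselves set apart from neutrophils. Psap, the precursor of the saposins that help degrade sphingolipids, stood at 8758 CPM in members, 10047 in S100-low macrophages and 2129.6 in neutrophils. Ctsd, the protease cathepsin D, stood at 3529, 4221 and 1349.8 CPM. All 9 measured genes of MHC class II presentation, Ctss again included, were at least 2-fold higher than in neutrophils. Of these 9, 0 differed by 2-fold from S100-low macrophages. Among them H2-Aa, an MHC class II chain, stood at 341, 259 and 61.8 CPM, but 112 of 180 members had a UMI of it and the 10 richest held 37.9% of its UMIs. Chemokine genes (11 measured), inflammatory cytokine genes (11), alternative activation genes (12) and complement and efferocytosis genes (15) also had 0 members at 2-fold from S100-low macrophages. Cxcl2, a neutrophil-attracting chemokine, stood at 267 CPM in members, 179.8 in S100-low macrophages and 342 in neutrophils. Osm, a cytokine of the interleukin-6 family, stood at 57.3, 36.1 and 90.6 CPM. Ccl6, an abundant chemokine of these cultures, stood at 11788, 12778 and 7950.3 CPM.

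What set members apart from S100-low macrophages was a set of neutrophil genes. Of the 88 genes at least 2-fold higher in members, 87 had a still higher CPM in S100-high neutrophils and 83 were at least 2-fold higher there. The 3 genes at least 2-fold lower, Plet1, Ckb and Tpmt, were lower still in neutrophils. Gene by gene, 0 of the 88 had their highest level in members. Since the classes were cut by S100a8 and S100a9, these counts describe the cut and support nothing beyond it.

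**Figure D3:**
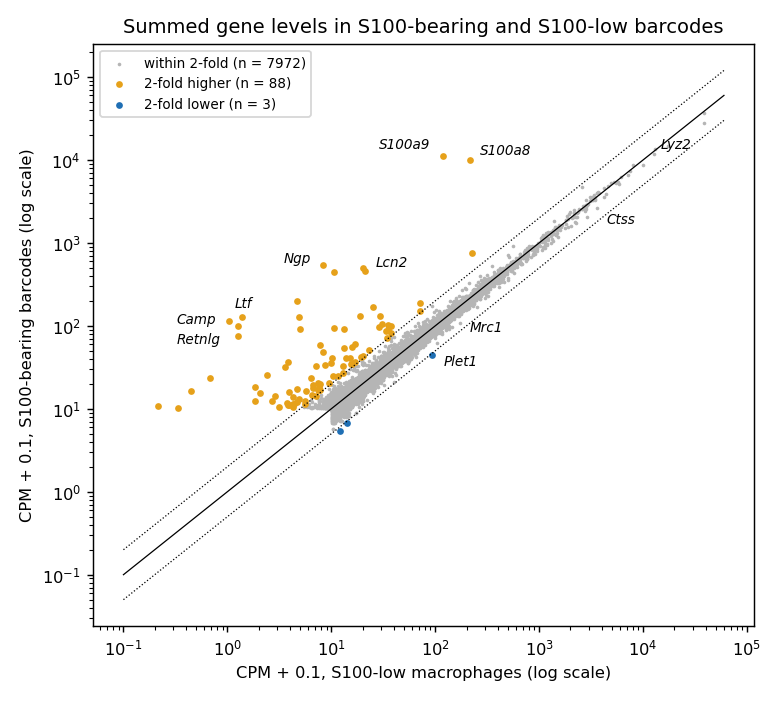
CPM of the 8063 measured genes (0.1 added, both axes log scale) in S100-low macrophages and S100-bearing barcodes; the solid line is equality and the dotted lines are 2-fold. Orange points are the 88 genes at least 2-fold higher, among them S100a8, S100a9, Ngp, Ltf and Camp, and blue points the 3 at least 2-fold lower.

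Secondary granule genes encode antimicrobial proteins packed into granules midway through neutrophil development. Of 13 measured, 8 were at least 2-fold higher in members than in S100-low macrophages and 0 lower, with a median log2 ratio of 1.98. Among all measured genes 1.09% were 2-fold higher and 0.0372% lower. Their summed level was 4325 CPM in members, 2522 in S100-low macrophages and 21665 in neutrophils, and per barcode it ran from 897 to 35514, from 346 to 11263 and from 0 to 160703 CPM. Ngp (ENSMUSG00000032484, chr9:110419747-110423012), a granule protein gene, stood at 548 CPM (531 to 565) in members, 8.27 (6.46 to 10.4) in S100-low macrophages and 8619 (8543 to 8695) in neutrophils, a log2 ratio of 6.05 over S100-low macrophages. Single members ran from 0 through a median of 0 to 14077 CPM of Ngp, and 10 members held 55.7% of its UMIs. Ltf, the iron-binding lactoferrin, stood at 127, 1.28 and 1822 CPM, and Camp, the cathelicidin precursor, at 115, 0.93 and 1125 CPM. Both rested on few members, since 10 barcodes held 88.8% of Ltf UMIs and 94.2% of Camp UMIs. Lcn2, the siderophore-binding lipocalin, was spread more widely. It stood at 492, 19.9 and 4644 CPM, had a UMI in 174 of 180 members, and ran from 0 through a median of 275 to 5354 CPM. Mmp8, a collagenase of granules, stood at 1466, 1528 and 1004 CPM, so the list also held genes with no such order.

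Primary granule and progenitor genes were thinly represented. Of 7 measured, 4 were at least 2-fold higher in members than in S100-low macrophages, beside 1.09% of all measured genes. Their median log2 ratio was 2.93, while their summed levels were 818, 769 and 1659 CPM. That median was below 2-fold with the S100 condition at 0.5% (0.27) or 2% (0.91), Lyz2 at 2% (0.27), Ctss at 0.3% (0.44) or genes at 50 CPM (0.25). Calr, on the same list, stood at 571 CPM in members, 653 in S100-low macrophages and 365 in neutrophils. Calr made up most of the summed level in members and S100-low macrophages, so their near-equal sums say little about the other genes listed. Elane, neutrophil elastase, stood at 23.3 CPM in members, 0.58 in S100-low macrophages and 455 in neutrophils, and 10 members held 96.6% of its UMIs. Prtn3, proteinase 3, stood at 58.6, 7.69 and 443 CPM. Ctsg, cathepsin G, stood at 10.1, 0.23 and 53.5 CPM. Its log2 ratio of 5.45 over S100-low macrophages turned to -2.66 when the S100 condition was raised to 0.5%. Mpo, myeloperoxidase, stood at 0.92, 0.23 and 38.8 CPM, too low in members and S100-low macrophages to count as measured there. Cebpe, the transcription factor of granule genes, stood at 33.6, 8.50 and 267 CPM.

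Genes of mature neutrophils were higher in members too. Of 29 measured maturation and surface genes, 15 were at least 2-fold higher than in S100-low macrophages, beside 1.09% of all measured genes, and 0 lower. Their median log2 ratio was 1.12 (0.97 with the S100 condition at 2%) and their summed levels were 5183, 3026 and 15527 CPM. Per barcode the sum ran from 1987 to 15308 CPM in members, from 419 to 6913 in S100-low macrophages and from 1325 to 79245 in neutrophils. Retnlg, which encodes a resistin-like protein of neutrophils, stood at 98.8 CPM in members, 1.16 in S100-low macrophages and 918 in neutrophils, with 70.5% of its member UMIs in 10 barcodes. Mmp9, the gelatinase, stood at 167, 25.3 and 619 CPM and had a UMI in 146 members, and the 10 richest held 21.6%. Csf3r, the receptor of granulocyte colony-stimulating factor, stood at 87.5, 33.7 and 239 CPM and had a UMI in 86.7% of members, 38.7% of S100-low macrophages and 67.9% of neutrophils, or 21.1%, 8.56% and 47.6% at 3000 UMIs. Cxcr2, a chemokine receptor of neutrophils, stood at 48.9, 8.15 and 189 CPM. At 3000 UMIs per barcode Cxcr2 had a UMI in 14.4% of members, 1.53% of S100-low macrophages and 45.0% of neutrophils. Ly6g, the surface antigen that defines mouse neutrophils, stood at 9.49, 0.35 and 110.1 CPM. Stfa2l1, BC100530, Stfa1 and Stfa3, stefin-type protease inhibitors of neutrophils, had log2 ratios of 5.46, 5.42, 4.21 and 6.02 over S100-low macrophages, but their near-identical copies make the split between them uncertain.

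UMIs of both lineages were found in most members, the class with the highest median depth. All 180 had a UMI of Mrc1, Axl or Naaa, and 151 of them also had a UMI of Ltf, Camp, Ngp, Retnlg, Stfa2l1 or BC100530. The 29 members with none of those 6 neutrophil genes had a median of 28838 UMIs. At 1 UMI such presence is a low bar, because Naaa also had a UMI in 34.2% of neutrophils and Ngp in 10.7% of S100-low macrophages. At 3000 UMIs, Ngp had a UMI in 22.2% of members, 1.53% of S100-low macrophages and 42.0% of neutrophils. The name macrophage rests on the rule's Ctss and Lyz2, of which neutrophils also held Lyz2, and on the marker levels above. The members also held neutrophil genes beyond S100a8 and S100a9.

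Levels in members lay between those of the comparators for most genes. Of 7856 genes measured in both comparisons, 58.9% had a member CPM between the levels of S100-low macrophages and neutrophils, and of the 1978 genes at least 2-fold apart between the comparators 83.9% did. A gene's position was then set on a scale from 0% (its S100-low macrophage CPM) to 100% (its neutrophil CPM). For 41 genes at 100 CPM or more in neutrophils and at least 8-fold above S100-low macrophages, the member level stood at a median of 13.1% of the way (quartiles 10.2% and 18.3%), from 5.0% for Elane to 27.9% for Mxd1. S100a8 stood at 13.7% and S100a9 at 11.5%. For 28 genes at least 8-fold higher in S100-low macrophages, with 0% at the neutrophil level, the member level stood at a median of 81.6% (quartiles 75.1% and 86.0%), from 59.0% for Ms4a6d to 109% for Pf4. S100a8 and S100a9 lay within the quartiles of the 41 neutrophil genes. Both genes chose the classes and their positions depend on the cuts used, so this is a description only.

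Across bands of S100 share, which the rule's own genes define, the summed macrophage list was lower and Retnlg and Cxcr2 were higher from band to band. The 35 members with 0.2% to 0.5% S100a8 plus S100a9 had 8671 CPM of the macrophage list, the 68 with 0.5% to 2% had 8026, and the 77 with 2% or more had 6730.5, against 9307 in S100-low macrophages and 1425 in neutrophils. Retnlg stood at 1.40, 51.7 and 199 CPM in the 3 bands and Cxcr2 at 19.6, 40.9 and 72.1 CPM. Ngp did not follow the bands below 2%, with 183, 153 and 1167 CPM. Csf3r, at 87.6, 77.6 and 98.6 CPM, had no such order. Nor did the macrophage gene Mrc1, at 134, 147 and 129.8 CPM. In UMIs per barcode rather than CPM, a member had on average 5.82 of Mrc1, 112 of Ctss, 3.69 of Csf3r and 23.1 of Ngp. An S100-low macrophage had 4.64, 95.3, 0.881 and 0.216, and a neutrophil 0.106, 1.94, 1.99 and 72.0. The macrophage list had a median of 272.5 UMIs in a member, 205 in an S100-low macrophage and 4 in a neutrophil, so per barcode it was higher in members although its CPM was lower. The count of S100a8 UMIs per S100a9 UMI was 0.883 in members and 1.23, 0.989 and 0.837 in the 3 bands, against 1.78 in S100-low macrophages and 0.731 in neutrophils.

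Members varied among themselves in granule and late neutrophil genes. Ltf, Camp and Ngp were summed and divided by S100a8 plus S100a9 in barcodes with at least 50 UMIs of that pair, 172 members and 667 neutrophils. The sum was 0 in 46.5% of those members and 57.1% of those neutrophils. It reached 5 or more per 100 S100 UMIs in 28 members, 16.3% (11.1 to 22.7), and in 124 neutrophils, 18.6% (15.7 to 21.8). Pooled over all barcodes of a class, the sum was 3.75 per 100 S100 UMIs in members and 6.91 in neutrophils, so the measures did not all place the classes alike. Retnlg, Stfa2l1 and BC100530, grouped here as late genes, had a median of 1.17 per 100 S100 UMIs in members and 0.69 in neutrophils.

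The 28 granule-rich members differed from the other 144 in further neutrophil genes. Cebpe stood at 92.2 CPM in the granule-rich members and 21.7 in the others, Cxcr2 at 25.8 and 53.3, Csf3r at 61.0 and 93.0, and Mmp9 at 72.7 and 188 CPM. Among neutrophils the granule-rich 124 and the other 543 had the same order for these genes. Cebpe stood at 590.2 and 119 CPM there, Cxcr2 at 91.7 and 232, Csf3r at 56.4 and 318, and Mmp9 at 191 and 815. BC100530, though grouped above as late, was higher in the granule-rich subset of both classes. It stood at 600 and 423 CPM in members and at 3204 and 2771 in neutrophils. Other neutrophil genes did not share their order. Retnlg stood at 70.3 and 105 CPM in the member subsets but at 1162 and 810 in the neutrophil subsets. Stfa2l1 stood at 227 and 196 CPM in members but at 934 and 1103 in neutrophils. Elane was level in members, at 23.4 to 24.2 CPM, but stood at 815 and 292 in neutrophils. Mrc1 hardly varied between these member subsets, at 126 and 139.9 CPM. Subsets were cut by genes measured in the same barcodes, so these are descriptions.

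**Figure D4:**
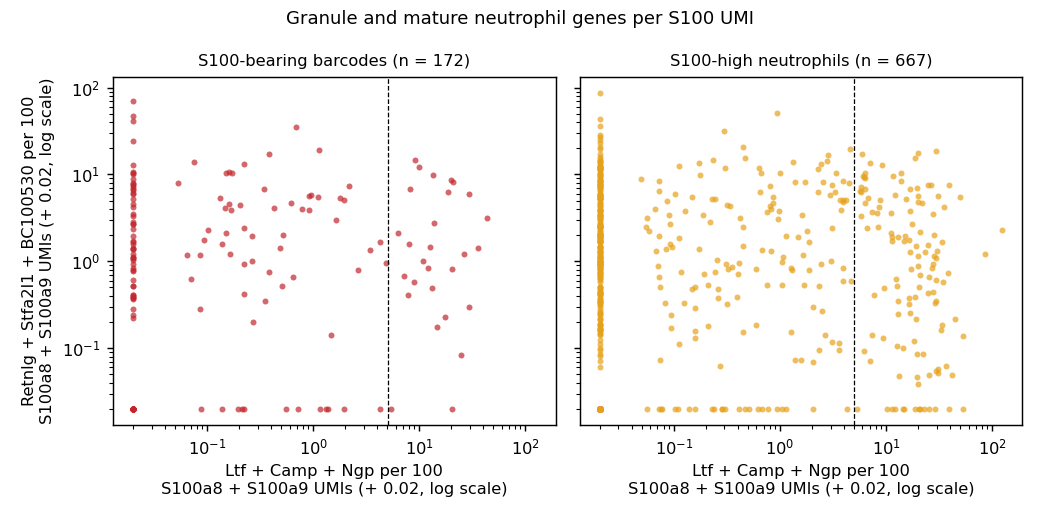
The x axis has secondary granule genes (Ltf, Camp and Ngp) and the y axis genes grouped as late (Retnlg, Stfa2l1 and BC100530). Each sum is per 100 UMIs of S100a8 plus S100a9, with 0.02 added, on log scales. Points are 172 S100-bearing barcodes and 667 S100-high neutrophils, and the dashed line marks 5 per 100. To the right of the line lie 28 S100-bearing barcodes (16.3%) and 124 neutrophils (18.6%).

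Other members of the S100 family did not move as a block. Of 8 measured S100 genes only S100a8 and S100a9 were at least 2-fold higher than in S100-low macrophages. S100a6, a calcium-binding protein of the same cluster, came next at 4708 CPM in members, 2562 in S100-low macrophages and 13363 in neutrophils, with a log2 ratio of 0.88 over S100-low macrophages. S100a11, another family member, stood at 493, 416 and 1406 CPM. S100a4, by contrast, stood at 864, 1127 and 386 CPM, and S100a10, the annexin A2 partner, at 734, 921 and 179. Genes for calprotectin's receptors and partners stayed within 2-fold of S100-low macrophages in all 8 measured. With 1.09% of all measured genes 2-fold higher and 0.0372% lower, this says little about them. Tlr4, a receptor for S100a8 and S100a9, stood at 73.4, 73.9 and 48.4 CPM, and Cd33, another proposed receptor, at 227, 199 and 285.

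Most monocyte genes and the measured gate genes lay within 2-fold of S100-low macrophages. Of 12 measured classical monocyte genes, Hp and Plac8 were at least 2-fold higher in members, beside 1.09% of all measured genes. Neutrophils also held both at high levels. Hp, haptoglobin, stood at 104, 30.4 and 792 CPM and Plac8 at 31.8, 3.49 and 221. Ccr2, the chemokine receptor of classical monocytes, stood at 358, 434 and 52.1 CPM. Itgam, which encodes CD11b, stood at 399 CPM in members, 382 in S100-low macrophages and 321 in neutrophils. Ly6c2, which encodes a Ly6C protein, stood at 361, 351 and 539.9 CPM, with the near-identical copy Ly6c1 making its level uncertain. Whether surface levels followed these RNA levels was not tested.

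Lists of cell growth and general metabolism gave no gene at 2-fold between members and S100-low macrophages. With 1.09% of all measured genes higher and 0.0372% lower, lists of this size would be likely to hold none, so this says little about them. The lists of S phase (24 genes measured), G2/M phase (25), oxidative phosphorylation (18), glycolysis and hypoxia (20), cytosolic ribosomal proteins (22) and stress and dissociation (14) each had 0 genes at 2-fold, with medians from -0.18 to 0.05. G2/M genes reached 2000 CPM or more in 22 members, 12.2% (7.82 to 17.9), in 48 S100-low macrophages, 14.6% (10.99 to 18.9), and in 23 neutrophils, 3.37% (2.15 to 5.02). In the lipid list Dgat1, a triglyceride-forming enzyme, was 2-fold higher, at 42.8 and 20.1 CPM, and in the iron and heme list Lcn2 (above), Slc40a1 and Tfrc were. Slc40a1, the iron exporter, stood at 10.4 and 3.03 CPM (log2 ratio 1.78, and -0.14 when barcodes were thinned to 3000 UMIs), and Tfrc, the transferrin receptor, at 14.1 and 6.99. Neutrophils had more of each, at 112 CPM of Dgat1, 29.0 of Slc40a1 and 21.6 of Tfrc.

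**Figure D5:**
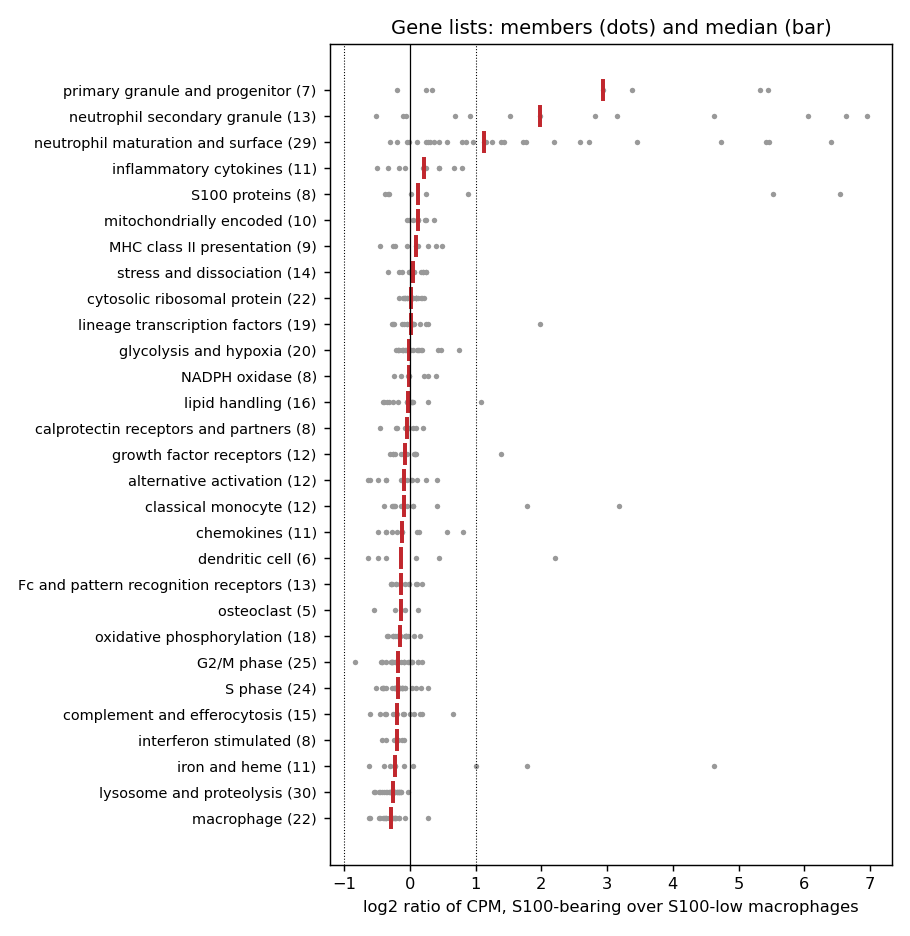
Log2 ratio of CPM, S100-bearing barcodes over S100-low macrophages, for measured genes (dots) and the median (red bar) of 29 gene lists with at least 5 measured genes, whose number is in brackets; dotted lines are 2-fold. The 3 neutrophil lists have medians of 1.12, 1.98 and 2.93 and every other list shown lies between -0.29 and 0.21.

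Markers of other lineages were mostly low in members. Among 16 dendritic cell genes Flt3, Xcr1, Ccr7 and Fscn1 had 0 UMIs in members, and the list summed to 504 CPM in members (0 to 3599.6 per barcode), 628 in S100-low macrophages and 233 in neutrophils. Ptx3, the secreted pentraxin, was the 1 gene of the 88 that was not higher in neutrophils, at 32.8 CPM in members, 7.10 in S100-low macrophages, 7.55 in neutrophils and 115 in the other kept barcodes. Its UMIs came from 18 members, 10 of which held 95.2%. There were 19 members, 10.6% (6.48 to 15.99), with at least 2 of Ccl17, Mgl2 and Ptx3 at 3 UMIs or more, and their median depth was 66645 UMIs, whereas 14 S100-low macrophages, 4.27% (2.35 to 7.06), had them. Without such barcodes the log2 ratio of Ptx3 was -0.68, which leaving out barcodes by their Ptx3 UMIs brings about, and that of Plet1, an epithelial and dendritic surface protein at 44.0 CPM in members and 93.97 in S100-low macrophages, went from -1.09 to 0.25. The osteoclast list summed to 339 CPM in members, 387 in S100-low macrophages and 64.4 in neutrophils, with Ocstamp and Calcr at 0 in members, and it shares Ctsk with the lysosome list. The megakaryocyte or platelet list summed to 114, 105 and 15.97 CPM, nearly all of it Pf4, with Gp9 at 0. The B list summed to 30.0, 31.1 and 54.6 CPM, nearly all Ighm at 28.1, 29.1 and 52.8 CPM, with Ms4a1 and Pax5 at 0. The T or NK list summed to 2.37, 0.58 and 30.5 CPM, with 8 of 10 genes at 0 in members, and the eosinophil list to 16.1, 11.9 and 23.3 CPM, with 5 of 8 at 0. The basophil or mast cell, erythroid, and stromal or endothelial lists summed to 4.35, 0.53 and 10.1 CPM in members. The dendritic cells' part in the members' profile was not tested beyond these values.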

How the data were processed

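Droplet libraries (3′ kit) of sorted mouse marrow culture cells were analysed, 1 per group. The authors deposited raw UMI counts per gene (47729) and barcode, written by software of version 3.1.0 per the file headers. Cell Ranger, bcl2fastq and the build mm10 are named in the submitters' processing notes. For the annotation release and the cell-calling rule, neither is given in the sources used here. The libraries held 28294186 UMIs (no coculture, 2180 barcodes, 16.7% left out) and 29217182 (coculture, 3134), with medians of 7016 and 6031 UMIs per kept barcode. They shared 4 barcode sequences, 1 of them a member's.

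UMIs were summed per class and scaled to CPM in Python (numpy 2.4.6, pandas 2.3.3, scipy 1.17.1). CPM carry exact Poisson 95% intervals and ratios exact conditional binomial ones. Genes at 10 CPM in either class counted as measured, and called means 2-fold. The ratio code was tested on simulated data. The members and 38 gene lists (519 genes, 517 in the files) were chosen with earlier results of these data known. Named genes were the rule, marker and gate genes and the 12 highest and 12 lowest ratios per comparison at 50 CPM or more. From each list up to 4 genes plus the most abundant were also named. Genes outside this rule, such as S100a10 and Mpo, were named after their values were seen. Promoters matched by symbol for both S100 genes. Positions are GENCODE M21, where 47310 identifiers matched. Scrublet (scanpy 1.11.5) called 0 barcodes, so doublets were not removed. TMM came from edgeR 4.0.16. Of 16 alternatives, 14 were planned and 2 were chosen after seeing the data. Human transcripts were not analysed here.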

Additional observations from a re-analysis of the deposited data

How the results depend on the processing

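With 1 library per group, nothing here has a replicate, and depth per barcode limits genes under about 10 CPM. No paired analysis was possible because each group was 1 library and no test was run. Of 496 values of the 31 named genes called at 2-fold over S100-low macrophages, 476 stayed at 2-fold the same way. Of 48 values of the 3 list medians called, 42 did. Part of this was fixed in advance. The measured-gene settings cannot move a single gene's ratio. Dropping neutrophils with a Ctss UMI cannot move any ratio over S100-low macrophages. The 31 genes also include S100a8 and S100a9, which define the class, and genes picked for their high ratios.

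The share of kept barcodes (9.91%) was 7.98% with S100a8 plus S100a9 at 0.5% or with Lyz2 at 2%, 4.24% with the S100 condition at 2%, 3.69% with Ctss at 0.3%, 8.26% over all deposited barcodes and 7.36% without the deepest 5%. The median depth (37446 UMIs) was 32641 with Ctss at 0.3% and 28838 without the deepest 5%. Genes higher than in S100-low macrophages (88) were 34 at 50 CPM, 405 at 10 UMIs, 407 after thinning to 3000 UMIs and 326 in the 39 members no deeper than the median S100-low macrophage. Genes lower (3) were 35 with the S100 condition at 2%, 6 with Lyz2 at 2%, 42 with Ctss at 0.3%, 17 without the deepest 5%, 5 without dendritic marker barcodes, 7 by mean CPM, 1 at 50 CPM, 259 at 10 UMIs, 409 after thinning and 284 in those 39 members. Genes higher than in neutrophils (1506) were 895 with Ctss at 0.3%, 823 by TMM, 456 at 50 CPM, 2845 at 10 UMIs and 2275 after thinning. Genes lower (293) were 480 by mean CPM, 508 by TMM, 142 at 50 CPM, 701 at 10 UMIs and 497 after thinning. Lists with a median at 2-fold or more (3) were 1 with the S100 condition at 2%, 5 at 10 UMIs, 2 with the S100 condition at 0.5%, Lyz2 at 2%, Ctss at 0.3% or 50 CPM, and 4 without the deepest 5%. The measured-gene settings change which genes are counted and thinning leaves fewer UMIs per gene; for the other changes the cause was not tested.

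Ctsg turned to -2.66 and -1.70 (log2) with the S100 condition at 0.5% and 2%, and Slc40a1 to -0.14 after thinning. Ptx3 turned to -0.33 with the S100 condition at 2%, -2.23 with Ctss at 0.3%, -0.68 without dendritic marker barcodes and -0.42 in the 39 shallower members. Plet1 turned to 0.25 without dendritic marker barcodes.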

Other observations

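Against S100-high neutrophils, several of the named genes with the highest ratios in the S100-bearing barcodes stood slightly higher in S100-low macrophages. Wfdc17, which encodes a small secreted protein, stood at 2415 CPM in S100-bearing barcodes, 2788 in S100-low macrophages and 156 in neutrophils. Cxcl16, a scavenger receptor and chemokine, stood at 108, 123 and 8.60 CPM, and Atp6v0d2, a subunit of the lysosomal proton pump, at 143, 167 and 13.9. Igf1, insulin-like growth factor 1, stood at 70.9, 80.8 and 6.85 CPM. At the other end, Ceacam10 stood at 36.1, 3.73 and 468 CPM and Serpinb1a, an inhibitor of neutrophil proteases, at 41.0, 10.1 and 467.

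Some macrophage genes were lower in S100-bearing barcodes than in S100-low macrophages without reaching 2-fold. C1qa, C1qb and C1qc, the 3 chains of complement C1q, stood at 56.7, 217 and 96.6 CPM in S100-bearing barcodes and at 73.9, 299 and 146 in S100-low macrophages. Arg1, arginase 1, stood at 35.3 and 54.0 CPM, Ms4a6d at 108 and 173, and Clec10a, a lectin of macrophages and dendritic cells, at 41.6 and 65.0. Pf4, also a platelet gene, stood at 111 and 103 CPM.

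In the 39 S100-bearing barcodes no deeper than the median S100-low macrophage, chosen after seeing the data, the log2 ratio over S100-low macrophages was 6.11 for Ngp, 4.20 for Lcn2, 6.605 for Retnlg, 2.06 for Csf3r and -0.14 for Mrc1. The macrophage list had a median of -0.31, the neutrophil maturation and surface list 1.42 and the primary granule and progenitor list 1.09. In all 180 S100-bearing barcodes these values were 6.05, 4.63, 6.41, 1.38, -0.36, -0.29, 1.12 and 2.93. The named neutrophil genes were thus also high in the shallower members, which the S100 condition chose as well. The part of droplets with 2 cells was not tested there.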
